A study of Mus musculus with 9 samples.

Results

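The 10 transcription factor genes described here are Pparg, Cebpa, Cebpb, Cebpd, Ppara, Ppard, Rxra, Rxrg, Klf15 and Ebf2, a list of regulators of fat cell identity drawn up by name. They are 10 of the 35071 genes to which transcripts were assigned, and all 10 passed the filter on low counts that left 17968 genes for testing. RNA was sequenced from whole subcutaneous fat of 24-week-old C57BL/6 mice, to ask which molecular changes accompany the metabolic phenotype of mice with a knockout of the Argonaute gene Ago1 in endothelial cells (EC-AGO1-KO). Animals labelled Homo KO, Hete KO and WT, read here as homozygous knockout, heterozygous knockout and wild type, contributed 3 libraries each. Neither the Cre driver nor the sex, diet or litter of the animals is stated in the labels. Because whole tissue was lysed, fewer cells of a type and less RNA per cell cannot be told apart.

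Fat cells form when the early factors C/EBPβ and C/EBPδ switch on PPARγ and C/EBPα, which then maintain each other and the genes of the mature fat cell. PPARs are nuclear receptors for fatty acids and their derivatives, and they bind DNA as heterodimers with RXR receptors. KLF15 and EBF2 act beside this core: KLF15 is induced by glucocorticoids and promotes fat cell differentiation, and EBF2 marks precursors of brown and beige fat cells in mice.

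None of the 10 factors passed edgeR's test, an adjusted p under 0.05 over all tested genes, in any comparison. Over the 6 KO libraries, Klf15 and Ebf2 had higher means than in WT, at 1.62 and 1.47 times the WT level, and Cebpb and Ppard had lower means, at 0.762 and 0.788 times. Pparg, Cebpa and Rxra, the 3 most abundant members, were at 1.15, 1.16 and 0.903 times the WT level. Pparg makes 2 proteins, and the share of its transcripts that encode the longer one did not differ detectably between KO and WT fat.

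The sequence that sets the 2 PPARγ proteins apart is the coding part of the first exon of Pparg-201, the transcript of the longer, fat-selective protein PPARγ2. It lies on the plus strand of chromosome 6 (mm10), within the Pparg gene at chr6:115360951-115490399, and is shown because the isoform results below rest on it. Together with the first bases of the next coding exon it adds 90 coding bases, or 30 codons, to the 475 codons of PPARγ1, which gives 505. The start codon is in capitals.
Pparg-201 first exon, coding part, chr6:115422111-115422192: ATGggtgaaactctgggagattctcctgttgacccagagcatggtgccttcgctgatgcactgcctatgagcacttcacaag

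The 2 proteins are driven by separate promoters. The 250 bases before the PPARγ2 start and before the start of Klf15, the gene with the largest difference from WT among the 10, are given from RefSeq on GRCm38.p6, plus strand. Capitals mark matches, on either strand, to a C/EBP motif (TTNCNNAA), a CCAAT box (CCAAT), a GC box (GGGCGG) or an E-box (CACGTG).
Pparg, PPARγ2 start, chr6:115421816-115422065: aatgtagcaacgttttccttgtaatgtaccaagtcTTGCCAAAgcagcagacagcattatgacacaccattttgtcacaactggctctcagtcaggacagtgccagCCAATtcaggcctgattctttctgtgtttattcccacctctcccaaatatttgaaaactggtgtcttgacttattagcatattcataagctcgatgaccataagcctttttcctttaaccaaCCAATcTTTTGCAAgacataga
Klf15, chr6:90462326-90462575: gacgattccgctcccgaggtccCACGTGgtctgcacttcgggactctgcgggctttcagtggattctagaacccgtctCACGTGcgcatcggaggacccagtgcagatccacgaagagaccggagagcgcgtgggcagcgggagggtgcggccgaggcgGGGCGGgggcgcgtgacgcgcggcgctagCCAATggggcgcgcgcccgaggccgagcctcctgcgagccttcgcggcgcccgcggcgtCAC

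The window of the PPARγ2 start held 2 C/EBP matches and 2 CCAAT boxes, and a window of a PPARγ1 start held 2 GC boxes and 1 CCAAT box. Klf15 had 3 E-boxes in its 300-base window, which runs 250 bases before to 50 after the start. The third of them spans the start itself. In all, 8 of the 10 members had an entry, with 12 such windows, and their GC content ran between 40.3% at the PPARγ2 start and 83.0% at Rxra, against a median of 52.7% over 32851 promoters. A C/EBP match was in 2 of the 12 windows and in 40.7% of all promoters, a CCAAT box in 5 and in 37.4%, a GC box in 7 and in 35.7%, and an E-box in 1 and in 7.15%. Motifs of the PPAR-RXR dimer (AGGTCA repeated after 1 base), of EBF factors (TCCC and GGGA with 2 bases between) and of the glucocorticoid receptor (GNACA and TGTNC with 3 bases between) were in 0 of the 12 windows and in 0.0396, 0.904 and 0.475% of all promoters. A match describes letters in these windows and does not show that a factor binds.

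AGO1 carries microRNAs to their target transcripts, and Pparg, Cebpa and Cebpb are known targets of a few microRNAs in fat cells or precursors. The mature sequences of these are given from RefSeq (GRCm38.p6) with the seed, bases 2 to 8, in capitals, grouped by shared seed. No microRNA was measured in these libraries.
mmu-miR-27a-3p: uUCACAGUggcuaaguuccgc
mmu-miR-27b-3p: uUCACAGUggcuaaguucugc
mmu-miR-130a-3p: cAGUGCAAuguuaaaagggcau
mmu-miR-130b-3p: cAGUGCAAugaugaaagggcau
mmu-miR-31-5p: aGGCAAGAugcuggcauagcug
mmu-miR-155-5p: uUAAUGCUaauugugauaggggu

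The longest annotated 3′ UTR of each gene was searched for the 7 bases that pair with each seed, which are in capitals in the sites below (mm10, plus strand).
Pparg, miR-27 seed, chr6:115490272-115490300: ctaagaaatttACTGTGAaaaagcattta
Pparg, miR-130 seed, chr6:115490226-115490254: ccttctattgaTTGCACTattattttgag
Cebpa, miR-31 seed, chr7:35121510-35121538: tttgctctgatTCTTGCCaaactgagact
Cebpb, miR-155 seed, chr2:167690355-167690383: tttccgtttcgAGCATTAaagtgaagaca

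The miR-27 seed had a match in Pparg, Rxra and Klf15, 3 of the 10 members, against 3364 of 20997 genes. The miR-130 seed matched Pparg and Rxra, against 2099 of the 20997 genes. The miR-31 seed matched Cebpa alone among the 10, against 11.2%, and the miR-155 seed matched Cebpb and Ebf2, against 8.3%. All of these are letters in a sequence, and 3′ UTRs differ in length, from 204 bases in Pparg to 3269 in Rxra. Of the genes with a match, Pparg, Cebpa, Klf15 and Ebf2 had higher means in KO fat and Cebpb and Rxra lower ones, as given below. Of the members without a match, Cebpd, Ppara and Rxrg also had higher means and Ppard a lower one. The knockout was in endothelial cells, and a link between a match and a level was not tested.

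The libraries held 20843427 to 28252001 estimated counts. Levels below are TMM-normalized CPM, which scale counts to library size, unless TPM, which also divides by transcript length, is named. All 10 adipocyte markers were detected in every library, with summed shares of 1.93 to 1.94% of the counts in Homo KO, 1.52 to 1.85% in Hete KO and 1.75 to 2.26% in WT. Ago1, the targeted gene, had 62.2, 58.6 and 25.8 CPM in Homo KO 1, 2 and 3, 51.2, 59.7 and 60.1 CPM in Hete KO 1, 2 and 3, and 69.9, 63.8 and 63.4 CPM in WT 1, 2 and 3, in RNA of all cells of the tissue. Of the counts, 12 skeletal muscle markers, none at 0 in any library, took 2.77% in Hete KO 2, 1.07% in WT 1 and 1.01% in WT 2, with 0.00285 to 0.128% elsewhere. Liver transcripts were seen in WT 2 and WT 3, where 12 liver markers took 0.108 and 0.0956% of the counts. The other 7 libraries had at most 0.00716%, with up to 7 of the 12 markers at 0. Leaving out the muscle libraries keeps WT 3 as the only WT library, and leaving out the liver libraries keeps WT 1 only, so that in those fits the lone WT library is assumed to vary like the other groups.

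The levels of the members spanned more than an order of magnitude. Per transcript length, over all 9 libraries and over transcripts annotated as protein-coding, Cebpa came first at 215 ± 33.9 TPM, followed by Pparg at 174 ± 20.6 TPM and Rxra at 63.0 ± 4.64 TPM (SD, n = 9). Cebpb, which averaged 43.9 ± 8.66 TPM, and Klf15, which averaged 22.9 ± 6.56 TPM, came next. Rxrg (15.7 ± 3.34 TPM), Ebf2 (13.1 ± 3.06 TPM) and Ppard (12.04 ± 3.12 TPM) lay close together, and Ppara (7.99 ± 2.39 TPM) and Cebpd (5.60 TPM, at most 9.002 TPM) were lowest. The libraries of neighbours in this order did not overlap between Pparg and Rxra or between Cebpb and Klf15. All other neighbours overlapped, although Cebpa was above Pparg in 8 of 9 libraries and Rxra above Cebpb in 9 of 9.

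**Figure D1:**
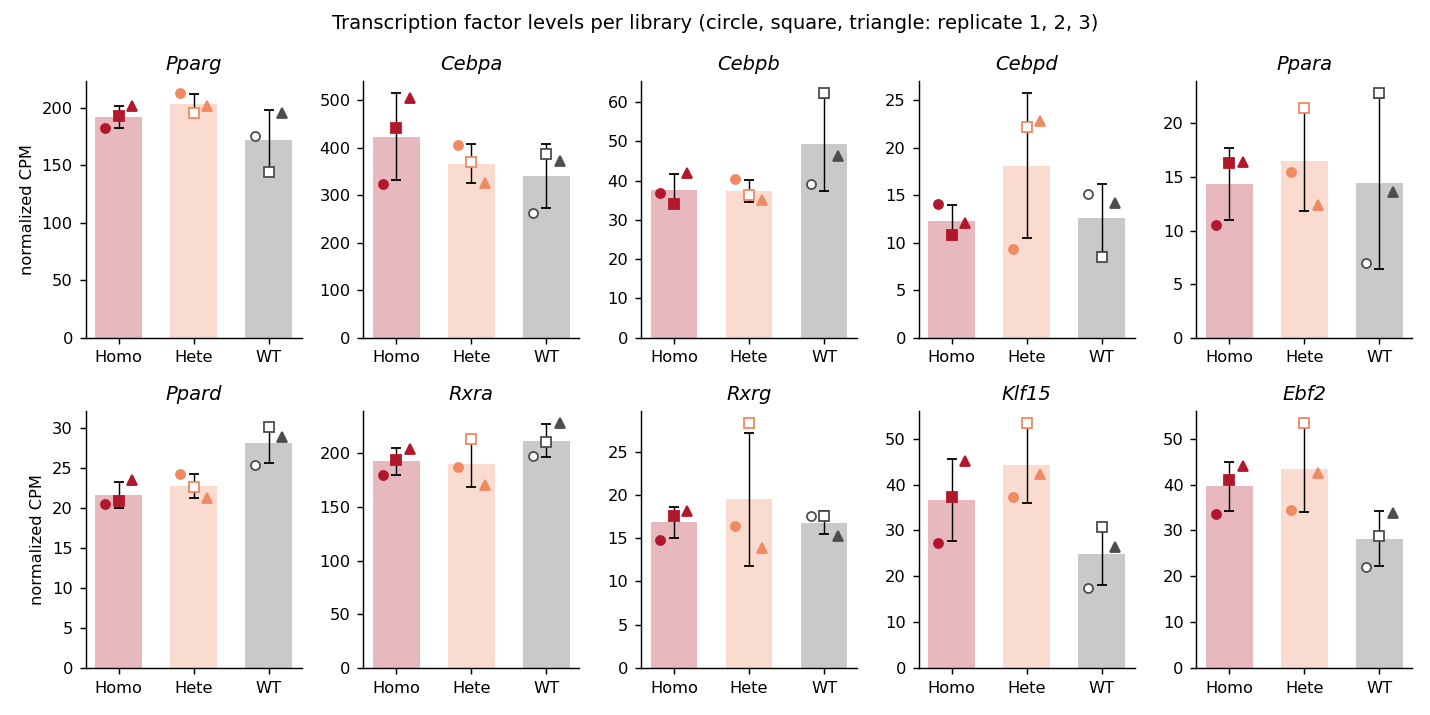
Level of each factor in each library, in normalized CPM on axes that start at 0, with Homo KO, Hete KO and WT from left to right. Bars are group means, whiskers 1 SD (n = 3), and circle, square and triangle are replicates 1, 2 and 3; open symbols are the 3 libraries with skeletal muscle transcripts. Ppard is the member whose 6 KO values, 20.5 to 24.2 CPM, all lie below the 3 WT values, 25.3 to 30.1 CPM.

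Pparg, the receptor that directs fat cell formation, had 183, 193 and 201 CPM in Homo KO 1, 2 and 3 and 213, 196 and 202 CPM in Hete KO 1, 2 and 3, against 176, 144 and 196 CPM in WT 1, 2 and 3. The Hete KO libraries lay above the WT libraries, the closest pair both rounding to 196 CPM, while the Homo KO and WT libraries overlapped. The log2 fold change was 0.16 in Homo KO against WT (SE 0.123, edgeR adjusted p = 0.530) and 0.24 in Hete KO against WT (SE 0.123, adjusted p = 0.282), and 0.20 over both KO groups (SE 0.107, adjusted p = 0.292). WT 2, one of the muscle libraries, was the lowest, and without the 3 muscle libraries the value over both KO groups was 0.04.

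Cebpa encodes C/EBPα, which keeps Pparg on in the mature cell, and lies at chr7:35119293-35121928. It had 324, 442 and 505 CPM in Homo KO 1, 2 and 3 and 406, 370.0 and 325 CPM in Hete KO 1, 2 and 3, against 263, 388 and 372 CPM in WT 1, 2 and 3. Homo KO 3 was highest and WT 1 lowest, and the groups overlapped. Cebpa was at a log2 fold change of 0.31 in Homo KO (SE 0.195, edgeR adjusted p = 0.444), 0.11 in Hete KO (SE 0.195, adjusted p = 0.797) and 0.21 over both KO groups against WT (SE 0.170, adjusted p = 0.490). Without WT 1 the value over both KO groups was 0.069, and without the liver libraries 0.58.

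The early factors of adipogenesis are encoded by Cebpb and Cebpd. Cebpb, at chr2:167688915-167690418, had 36.9, 34.2 and 42.0 CPM in Homo KO 1, 2 and 3 and 40.5, 36.5 and 35.2 CPM in Hete KO 1, 2 and 3, against 39.0, 62.3 and 46.4 CPM in WT 1, 2 and 3. WT 2 was the highest library, and WT 1 lay within the KO range. The log2 fold change was -0.39 in Homo KO (SE 0.166, edgeR adjusted p = 0.289), -0.40 in Hete KO (SE 0.166, adjusted p = 0.200) and -0.39 over both KO groups (SE 0.142, unadjusted p = 0.0200, adjusted p = 0.144). It was -0.18 without WT 2 and -0.06 without the liver libraries WT 2 and WT 3. In TPM the 6 KO values of the single Cebpb transcript, 36.6 to 44.1, lay below the 3 WT values, 44.7 to 65.2. The share of all genes that did so in TPM was not counted.

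Cebpd, which encodes C/EBPδ (chr16:15887286-15891031), had 14.1, 10.8 and 12.03 CPM in Homo KO 1, 2 and 3 and 9.31, 22.2 and 22.9 CPM in Hete KO 1, 2 and 3, against 15.2, 8.54 and 14.2 CPM in WT 1, 2 and 3. Hete KO 2 and 3 stood above all other libraries and Hete KO 1 near the bottom, so the coefficient of variation was 42.1% in Hete KO, 13.5% in Homo KO and 28.3% in WT. Cebpd was at a log2 fold change of -0.04 in Homo KO (SE 0.331, edgeR adjusted p = 0.970) and 0.52 in Hete KO against WT (SE 0.331, adjusted p = 0.396), and -0.56 in Homo KO against Hete KO (SE 0.331, adjusted p = 0.934).

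Among the other PPARs, Ppard encodes PPARδ, a broadly expressed receptor that drives fatty acid oxidation, and lies at chr17:28232700-28301474. It had 20.5, 20.8 and 23.5 CPM in Homo KO 1, 2 and 3 and 24.2, 22.6 and 21.2 CPM in Hete KO 1, 2 and 3, against 25.3, 30.1 and 28.8 CPM in WT 1, 2 and 3. Every KO library lay below every WT library, which held in this direction for 6.06% of all tested genes. Ppard was at a log2 fold change of -0.38 in Homo KO (SE 0.120, edgeR adjusted p = 0.216), -0.31 in Hete KO (SE 0.120, adjusted p = 0.176) and -0.34 over both KO groups (SE 0.102, unadjusted p = 0.00750, adjusted p = 0.0944). It was -0.37 without the muscle libraries and -0.20 without the liver libraries.

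Ppara, the PPAR of fatty acid oxidation in liver and brown fat (chr15:85734983-85802819), had 10.5, 16.3 and 16.3 CPM in Homo KO 1, 2 and 3 and 15.5, 21.5 and 12.4 CPM in Hete KO 1, 2 and 3, against 6.93, 22.8 and 13.5 CPM in WT 1, 2 and 3. The WT libraries alone spanned the whole range, 3.29 times between WT 1 and WT 2. Over both KO groups Ppara was at 0.09 on the log2 scale (SE 0.331, edgeR adjusted p = 0.895). It was at -0.22 without WT 1, at 0.59 without WT 2, and at 1.15 without WT 2 and WT 3, the libraries with liver transcripts. WT 2, highest in Ppara, also held 168 CPM of Ucp1, the uncoupling protein of thermogenic fat, against 0.972 to 29.2 CPM elsewhere.

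Neither RXR partner passed the test. Rxra, the main RXR of the tissue at chr2:27676440-27762957, had 179.6, 194 and 204 CPM in Homo KO 1, 2 and 3 and 187, 213 and 171 CPM in Hete KO 1, 2 and 3, against 197, 210.3 and 228 CPM in WT 1, 2 and 3. The groups overlapped, with WT 3 highest and Hete KO 3 lowest, and the log2 fold change over both KO groups was -0.15 (SE 0.0999, edgeR adjusted p = 0.408). Rxrg, which in mice is also expressed in skeletal muscle, lies at chr1:167598384-167639623 and had 14.8, 17.6 and 18.2 CPM in Homo KO 1, 2 and 3 and 16.4, 28.2 and 13.8 CPM in Hete KO 1, 2 and 3, against 17.5, 17.6 and 15.2 CPM in WT 1, 2 and 3. The highest value was that of Hete KO 2, the library with the most muscle transcripts, and the part of those transcripts in it was not tested. Rxrg was at 0.11 over both KO groups (SE 0.209, edgeR adjusted p = 0.785).

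Klf15 and Ebf2 had the largest positive differences. Klf15 (chr6:90462576-90475238) had 27.3, 37.4 and 45.1 CPM in Homo KO 1, 2 and 3 and 37.2, 53.4 and 42.3 CPM in Hete KO 1, 2 and 3, against 17.5, 30.8 and 26.4 CPM in WT 1, 2 and 3. All Hete KO libraries lay above all WT libraries, and Homo KO 1 lay below WT 2. The log2 fold change was 0.56 in Homo KO (SE 0.240, edgeR adjusted p = 0.290), 0.83 in Hete KO (SE 0.241, adjusted p = 0.102) and 0.69 over both KO groups against WT (SE 0.214, unadjusted p = 0.00894, adjusted p = 0.1003).

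Ebf2 (chr14:67233292-67430918) had 33.6, 41.1 and 44.0 CPM in Homo KO 1, 2 and 3 and 34.4, 53.3 and 42.4 CPM in Hete KO 1, 2 and 3, against 22.1, 28.7 and 33.9 CPM in WT 1, 2 and 3. The Hete KO and WT libraries did not overlap, by the margin between 34.4 CPM in Hete KO 1 and 33.9 CPM in WT 3, and Homo KO 1 lay just below WT 3. The log2 fold change was 0.49 in Homo KO (SE 0.198, edgeR adjusted p = 0.270), 0.62 in Hete KO (SE 0.198, adjusted p = 0.121) and 0.55 over both KO groups (SE 0.175, unadjusted p = 0.0102, adjusted p = 0.105). Between Homo KO and Hete KO the log2 fold change was -0.27 for Klf15 and -0.13 for Ebf2 (edgeR adjusted p = 0.954 and 0.983).

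Both genes were lowest in WT 1 and highest in Hete KO 2, 2 libraries with muscle transcripts. Without the 3 muscle libraries the log2 fold change over both KO groups was 0.54 for Klf15 (edgeR adjusted p = 0.437) and 0.21 for Ebf2 (adjusted p = 0.685). Without the liver libraries it was 1.20 and 0.91 (edgeR adjusted p = 0.395 and 0.419). With the muscle score as a covariate it was 0.69 and 0.53 (edgeR adjusted p = 0.132 and 0.141). DESeq2 called both genes higher in Hete KO and over both KO groups, with the same log2 fold changes and adjusted p of 0.0120 and 0.0366 in Hete KO for Klf15 and Ebf2, and of 0.0153 and 0.0287 over both KO groups. With the replicate number as a block, edgeR called Klf15 in Hete KO (adjusted p = 0.0485) and both genes over both KO groups (adjusted p = 0.0422 and 0.0495). In Hete KO both of these fits also called more of all genes than the main fit, as counted in the last section. The share of all genes called with the block over both KO groups is not given here. The replicate numbers share no stated litter or batch and are not taken as pairs.

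**Figure D2:**
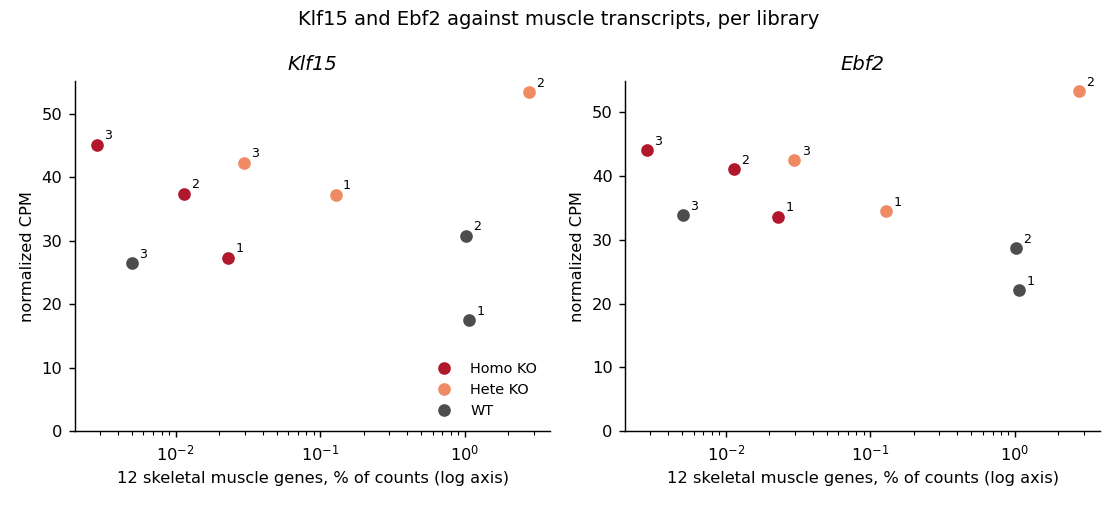
Klf15 (left) and Ebf2 (right) in normalized CPM against the share of counts taken by 12 skeletal muscle genes, on a log axis, 1 point per library with its replicate number. The libraries with most muscle transcripts hold both extremes, Hete KO 2 at 53.4 and 53.3 CPM and WT 1 at 17.5 and 22.1 CPM.

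Over the 10 members, edgeR called 0 in Homo KO against WT, where 0% of all tested genes were called, and 0 in Hete KO against WT, where 0.417% were called (0.15% higher and 0.267% lower). It called 0 of 10 in Homo KO against Hete KO (0% of all genes) and 0 of 10 over both KO groups against WT, where 2.34% of all genes were called (0.824% higher and 1.52% lower). At an unadjusted p under 0.05 the same 4 members, Klf15 and Ebf2 above WT and Cebpb and Ppard below it, were counted in each comparison with WT, and these comparisons share the WT libraries. Among all tested genes 16.4% reached that level in Homo KO (7.75% higher and 8.68% lower), 21.9% in Hete KO (9.71% higher and 12.1% lower) and 22.6% over both KO groups (10.2% higher and 12.3% lower). Between Homo KO and Hete KO 0 of 10 members and 5.44% of all genes did. DESeq2 called 2 members, Klf15 and Ebf2, in Hete KO and over both KO groups, and 0 in the other comparisons. It also called many more of all tested genes than edgeR, as counted in the last section. The edgeR shares are therefore not the background for its 2 members.

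Groups did not overlap for 1 member in Homo KO against WT, Ppard on the lower side, against 22.1% of all genes (10.9% higher and 11.2% lower). In Hete KO against WT they did not overlap for 4 members, Pparg, Klf15 and Ebf2 on the higher side and Ppard on the lower, against 24.7% of all genes (12.6% higher and 12.1% lower). Over both KO groups this held for Ppard alone, against 12.4% of all genes (6.37% higher and 6.06% lower), and between the KO groups for 0 members and 11.4% of all genes.

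The median log2 fold change of the 10 members was 0.00 in Homo KO, 0.20 in Hete KO and 0.16 over both KO groups against WT. The median of all tested genes was between -0.01 and 0.02 in these comparisons. Of the 10 members, 5 were above 0 in Homo KO and 7 in Hete KO. With all 9 libraries in the fit, the estimates against WT lay between -0.40 for Cebpb and 0.83 for Klf15, both in Hete KO.

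**Figure D3:**
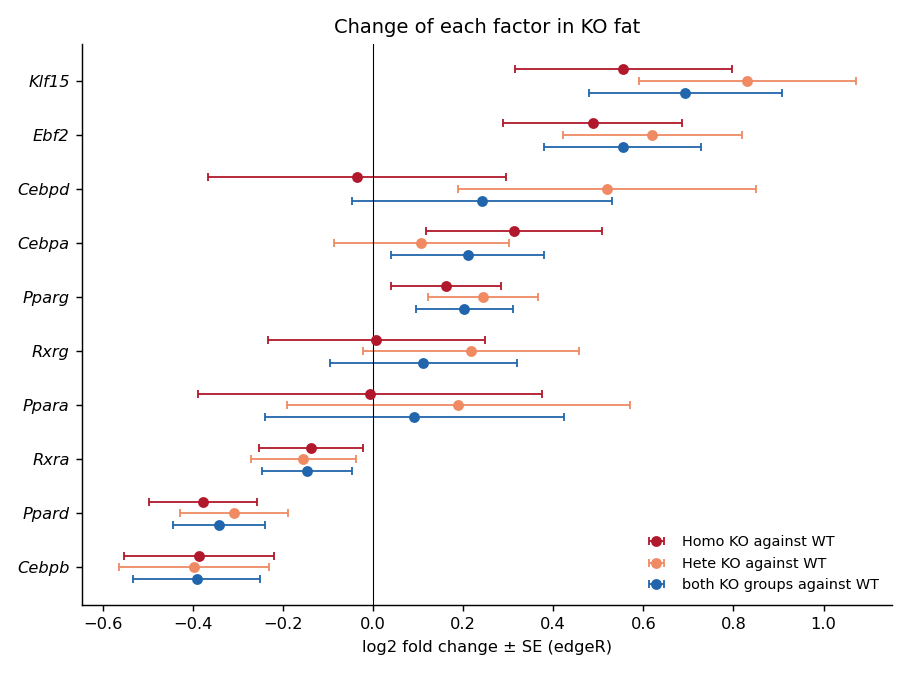
Log2 fold change of each factor with its SE from the edgeR fit, for Homo KO against WT, Hete KO against WT and both KO groups against WT, ordered by the last. Klf15 and Ebf2 lie at the upper end (0.69 and 0.55 over both KO groups) and Ppard and Cebpb at the lower end (-0.34 and -0.39); none passed after adjustment over all tested genes.

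Across the 9 libraries, 2 pairs of members moved closely together. Klf15 and Ebf2 had a Pearson r of 0.94 between their log2 CPM, and Cebpb and Ppard one of 0.89, while Pparg and Cebpb ran in opposite directions (r = -0.71). Ppara had an r of 0.72 with Cebpa and of 0.74 with Klf15. These are descriptions over 9 libraries that share group differences, muscle transcripts and normalization.

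The genes most like each member over the 9 libraries, among 9270 with at least 10 CPM, are given as a description too. For Klf15 they were Urb1, S100a1 and Suclg2 (r = 0.99, 0.97 and 0.97), and for Ebf2 Echdc2, Ddhd2 and Podn (0.98, 0.98 and 0.98). For Pparg they were Med12l, Hmgn3 and Pex3 (0.98, 0.98 and 0.98) and for Cebpa Syde1, Stat5a and Ech1 (0.96, 0.96 and 0.95). B3gat3, Tbc1d2b and Acap3 were nearest to Cebpb (0.99, 0.96 and 0.96), and Tead1, Ranbp9 and Rora to Cebpd (0.95, 0.95 and 0.94).

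Ppara was nearest to Cidea, Acaa2 and Bsdc1 (r = 0.97, 0.97 and 0.94). Cidea, whose protein enlarges lipid droplets, had 6.93, 16.1 and 15.3 CPM in Homo KO 1, 2 and 3 and 11.2, 26.8 and 10.4 CPM in Hete KO 1, 2 and 3, against 3.30, 27.4 and 7.67 CPM in WT 1, 2 and 3. As with Ppara, its lowest and highest libraries were both WT. Ppard was nearest to Ahcy, Ncaph2 and Irgq (0.97, 0.96 and 0.96), Rxra to Arel1, Ppt2 and Cyhr1 (0.95, 0.94 and 0.94) and Rxrg to Fsd2, Rabgef1 and Zfp652 (0.98, 0.95 and 0.95).

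The deposited files give each transcript of a gene its own value, and 43 transcripts of the 10 members were present, 32 of them at a mean of at least 1 TPM. Of the 34 that passed the filter 0 were called by edgeR over both KO groups, as were 0 of all 55891 transcripts tested (0%), and the lowest adjusted p was 0.373. At an unadjusted p under 0.05 there were 6 of the 34 member transcripts, against 9.71% of all. Among the 6 was Ebf2-201, which lay near the floor, at a mean of 0.132 TPM over all libraries and 0 TPM in WT (log2 fold change 6.89, SE 2.67). Values per transcript carry the quantifier's uncertainty in assigning shared reads, for which no measure is given in the sources used here.

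Most Cebpa, Cebpb, Cebpd and Rxra signal came from 1 transcript each, while Klf15 and Ebf2 were split. Cebpa-201 held 223 ± 33.2 TPM in KO and 192 ± 28.6 TPM in WT libraries, and Rxra-201 held 52.2 ± 3.06 TPM in KO and 58.4 ± 2.91 TPM in WT (n = 6 and 3). Klf15-201 had 6.43, 12.2 and 16.7 TPM in Homo KO 1, 2 and 3 and 16.1, 12.7 and 14.1 TPM in Hete KO 1, 2 and 3, against 6.20, 7.45 and 6.27 TPM in WT 1, 2 and 3. Homo KO 1 alone among the KO libraries lay in the WT range, and the log2 fold change over both KO groups was 0.96 (SE 0.323, edgeR adjusted p = 0.415). The other coding transcripts of Klf15, Klf15-202 to Klf15-205, had log2 fold changes between -0.17 and 1.49, with SEs between 0.466 and 1.52.

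Ebf2-202 had 7.77, 7.41 and 6.96 TPM in Homo KO 1, 2 and 3 and 7.83, 9.45 and 8.52 TPM in Hete KO 1, 2 and 3, against 4.37, 6.33 and 4.42 TPM in WT 1, 2 and 3. Every KO library lay above every WT library, with a log2 fold change of 0.64 (SE 0.186, edgeR adjusted p = 0.373). Ebf2-203, the longer coding transcript, had 6.61 ± 1.14 TPM in KO and 4.54 ± 1.08 TPM in WT libraries (0.52, SE 0.259, edgeR adjusted p = 0.568). Ppard-201, the main Ppard transcript, had 7.44, 7.17 and 8.80 TPM in Homo KO 1, 2 and 3 and 9.05, 7.97 and 8.10 TPM in Hete KO 1, 2 and 3, against 9.51, 12.3 and 10.4 TPM in WT 1, 2 and 3. The KO libraries lay below the WT libraries (-0.43, SE 0.165, edgeR adjusted p = 0.466), which is not independent of the result for the whole gene. Groups also did not overlap for Cebpa-202, at 1.83 ± 0.354 TPM in KO and 1.04 ± 0.169 TPM in WT libraries. The share of all transcripts whose groups did not overlap was not counted.

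Pparg had 7 annotated transcripts in the files. Pparg-201, which begins with the exon shown above and encodes PPARγ2, had 100.1, 119 and 91.5 TPM in Homo KO 1, 2 and 3 and 113, 89.2 and 102 TPM in Hete KO 1, 2 and 3, against 88.9, 68.3 and 89.9 TPM in WT 1, 2 and 3. Only Hete KO 2, at 89.2 TPM, lay within the WT range, and the log2 fold change over both KO groups was 0.29 (SE 0.146, edgeR adjusted p = 0.574). Pparg-204, the main transcript of PPARγ1, had 46.4, 24.8 and 50.2 TPM in Homo KO 1, 2 and 3 and 47.4, 54.3 and 60.5 TPM in Hete KO 1, 2 and 3, against 47.2, 35.6 and 50.6 TPM in WT 1, 2 and 3. Homo KO 2 was the lowest library in Pparg-204 and the highest in Pparg-201, and the groups overlapped (0.05, SE 0.250, edgeR adjusted p = 0.973).

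Pparg-203, a retained-intron transcript of only 213 bases, had 56.4 to 139 TPM in the 6 KO libraries and 37.6 to 68.5 TPM in WT. It encodes no protein, and because TPM divides by length it took 18.01 to 40.1% of all Pparg TPM. The PPARγ2 share is therefore given in 3 ways. Of all Pparg TPM, Pparg-201 held 37.6, 46.8 and 34.3% in Homo KO 1, 2 and 3 and 32.6, 37.5 and 39.9% in Hete KO 1, 2 and 3, against 34.7, 39.3 and 43.1% in WT 1, 2 and 3. The mean was 38.1 ± 4.98% in KO and 39.0 ± 4.16% in WT (SD, n = 6 and 3), a difference of -0.90 percentage points (two-sided exact permutation test, p = 0.786 over 84 arrangements, smallest possible p 0.0119).

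Of the estimated counts of Pparg the PPARγ2 transcript held 58.5 ± 5.97% in KO and 54.4 ± 1.39% in WT libraries, a difference of 4.15 points (exact permutation p = 0.310). Of the protein-coding Pparg TPM it held 56.1 ± 5.21% in KO and 52.9 ± 2.69% in WT, a difference of 3.21 points (exact permutation p = 0.429), a denominator chosen after the data were seen. Homo KO 2 stood highest by both measures, at 70.1% of the counts and 66.0% of the coding TPM. Between Homo KO and WT, Hete KO and WT, and Homo KO and Hete KO, the 3 shares had exact p values of 0.2 or more, where 3 against 3 libraries allow no p below 0.1.

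**Figure D4:**
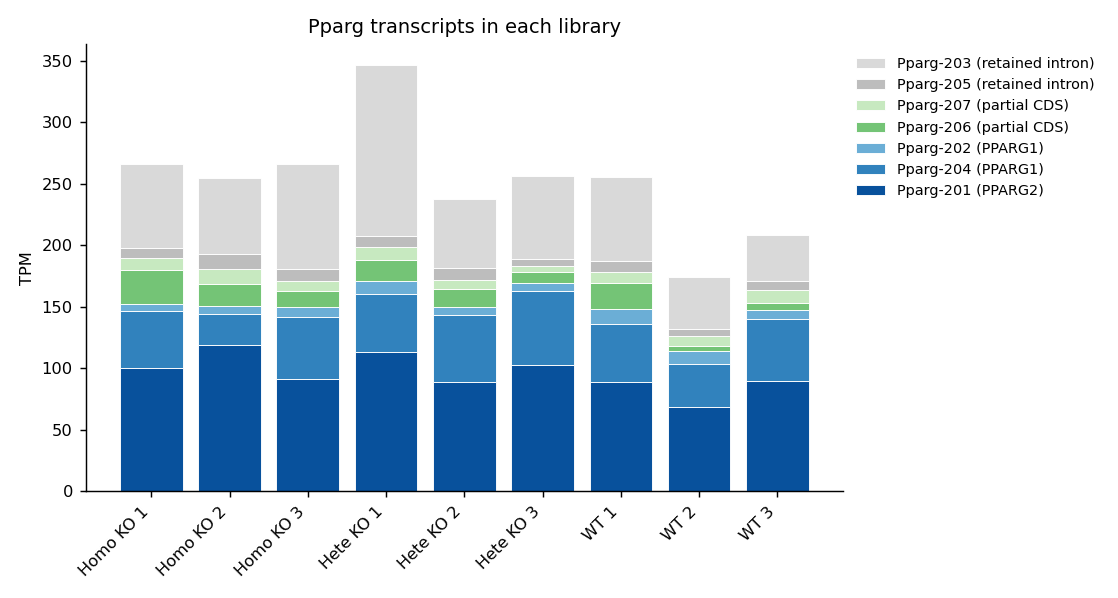
TPM of the 7 Pparg transcripts stacked per library, Homo KO, Hete KO and WT from left to right. The PPARγ2 transcript Pparg-201 (dark blue) is the largest coding part in every library, and the short retained-intron transcript Pparg-203 (light grey) adds 37.6 to 139 TPM in height.

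The partners and targets of the 10 factors were read from 7 lists of 128 genes, 7 of which are in more than 1 list, in both KO groups against WT. In that comparison edgeR called 5 of the listed genes higher and 4 lower, against 0.824% higher and 1.52% lower among all tested genes, and the median log2 fold change of all tested genes was -0.01. In Homo KO against WT it called 0 of them. Among the 15 receptors and cofactors of the PPARs, 1 was called higher and 0 lower, with a list median log2 fold change of 0.22. It was Ncor1, the corepressor of nuclear receptors, with 467, 494 and 531 CPM in Homo KO 1, 2 and 3 and 459, 542 and 543 CPM in Hete KO 1, 2 and 3, against 371, 324 and 363 CPM in WT 1, 2 and 3. All KO libraries lay above all WT libraries (0.52, SE 0.103, edgeR adjusted p = 0.0411). Tle3, another cofactor gene of this list, was at 0.46 (edgeR adjusted p = 0.0505) and missed the threshold. Ppargc1a, a coactivator of PPARγ, also missed it, with 23.8 ± 6.61 CPM in KO and 11.9 ± 2.22 CPM in WT (edgeR adjusted p = 0.0561).

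Of 20 other factors that promote adipogenesis, 1 was called higher and 0 lower (median 0.17). This was Ebf3, a paralogue of Ebf2, with 103 ± 5.67 CPM in KO and 71.7 ± 4.77 CPM in WT libraries (n = 6 and 3; log2 fold change 0.53, SE 0.0864, edgeR adjusted p = 0.0378). Its relative Ebf1 had 276 ± 23.2 CPM in KO and 179 ± 44.4 CPM in WT (0.63, edgeR adjusted p = 0.0619). Prdm16, a partner of PPARγ and EBF2 in beige fat, was at 0.36 (edgeR adjusted p = 0.0586) and Nr1h3, the liver X receptor of fat, at -0.24 (adjusted p = 0.184).

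Of 18 factors and signals that restrain adipogenesis, 1 was called higher and 0 lower (median 0.13). It was Tcf7l2, the transcription factor of Wnt signalling, with 132, 144 and 147 CPM in Homo KO 1, 2 and 3 and 122, 143 and 141 CPM in Hete KO 1, 2 and 3, against 94.8, 85.8 and 89.5 CPM in WT 1, 2 and 3. Its groups did not overlap (0.62, SE 0.0910, edgeR adjusted p = 0.0265), and it was also the 1 listed gene called in Hete KO against WT (0.59, adjusted p = 0.0488). Nr2f2, a nuclear receptor that opposes Pparg, was at 0.51 (edgeR adjusted p = 0.0673) and Foxo1 at 0.40 (adjusted p = 0.101). On the lower side Wnt10b, a Wnt ligand, was at -1.53 (edgeR adjusted p = 0.0944), and at 0.11 without the liver libraries.

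Among 28 PPARγ target genes of the fat cell, 27 were tested, 1 was called higher and 0 lower, and the median was 0.13. Pck1, which makes glycerol for triglycerides in fat, had 2575, 3987 and 3868 CPM in Homo KO 1, 2 and 3 and 2352, 4071 and 3273 CPM in Hete KO 1, 2 and 3, against 635, 1367 and 1468 CPM in WT 1, 2 and 3. The lowest KO library was above the highest WT library (1.53, SE 0.298, edgeR adjusted p = 0.0411). Cfd, which encodes adipsin, was at 1.86 (edgeR adjusted p = 0.0645), and the lipase gene Pnpla2 at 0.72 (adjusted p = 0.0726). Without the muscle libraries they were at 0.79 and 0.26, and Pck1 was at 1.10. Without the liver libraries Cfd was at 2.86, Pnpla2 at 1.07 and Pck1 at 2.40. On the other side, Agpat2, of triglyceride synthesis, was at -0.53 (edgeR adjusted p = 0.158).

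Of 24 PPARα and PPARδ target genes, 0 were called higher and 1 lower, with a median log2 fold change of -0.0037. The called gene, Cyp4a14, a fatty acid hydroxylase known from liver, had at most 0.535 CPM in the 6 KO libraries, against 0.167, 8.42 and 6.13 CPM in WT 1, 2 and 3, so its WT level was in the 2 libraries with liver transcripts. Its edgeR adjusted p was 0.0436, and without those libraries the log2 fold change was -0.15. Plin2, a lipid droplet protein, was at -0.64 (adjusted p = 0.0738), Vldlr at -0.56 (adjusted p = 0.0612) and Acadm, of fatty acid oxidation, at 0.49 (edgeR adjusted p = 0.0971).

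Klf15 is a glucocorticoid-induced gene, and of 15 other genes that respond to glucocorticoids 1 was called higher and 3 lower (median -0.02). Of these 15, 7 had a log2 fold change above 0. Sult1a1, a sulfotransferase, was higher, at 131 ± 17.5 CPM in KO and 81.5 ± 13.1 CPM in WT libraries (0.68, SE 0.148, edgeR adjusted p = 0.0477). The metallothionein genes Mt2 (8.08 ± 3.24 CPM in KO and 22.3 ± 3.44 CPM in WT, log2 fold change -1.51, edgeR adjusted p = 0.0265) and Mt1 (-0.97, adjusted p = 0.0436) were lower. Lcn2, which encodes lipocalin 2, was lower too (-2.23, edgeR adjusted p = 0.0398). Its level was low, at 0.634 ± 0.444 CPM in KO and 2.58 ± 0.173 CPM in WT. Metallothioneins also respond to metals and Lcn2 to inflammation. Of 16 genes of beige and brown fat, 15 were tested and 0 were called in either direction (median -0.11). Among the tested genes 7 had a log2 fold change above 0. Ppargc1a and Prdm16, named above, are also in this list. Both were higher, with KO and WT libraries that did not overlap (edgeR adjusted p = 0.0561 and 0.0586). On the lower side, Dio2, which activates thyroid hormone in thermogenic fat, was at -1.31 (edgeR adjusted p = 0.0577). Dio2 was at -0.83 without WT 2 and at -0.39 without the muscle libraries.

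**Figure D5:**
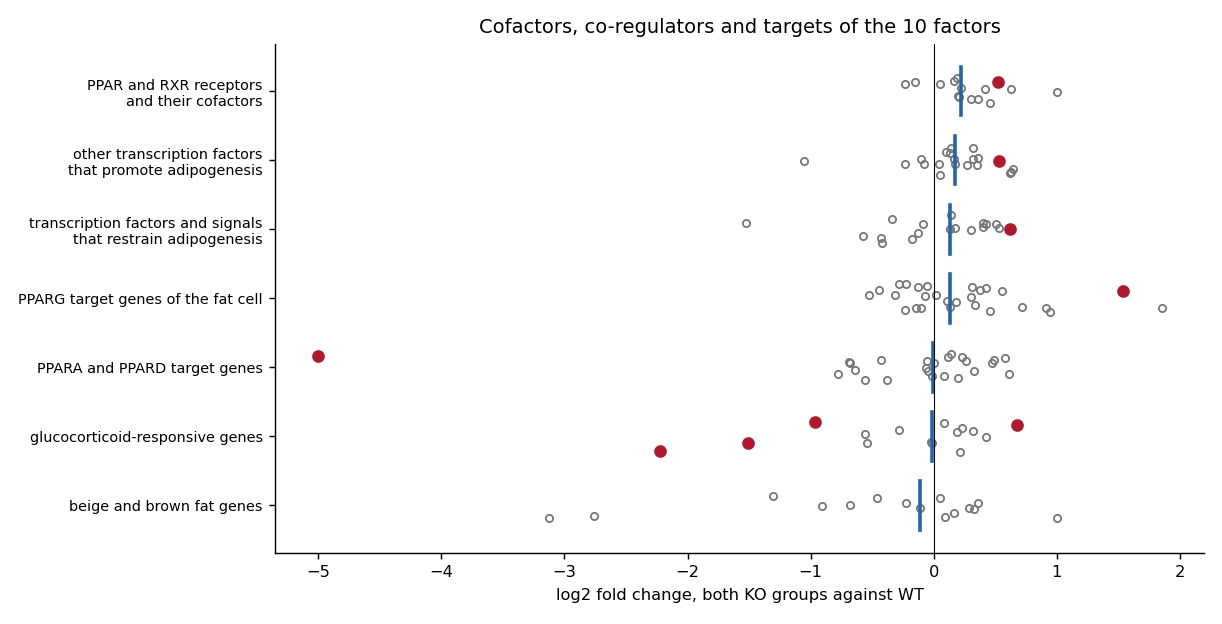
Log2 fold change over both KO groups against WT of every tested gene in 7 lists, 1 point per gene, with filled points for genes that edgeR called and bars for list medians. The medians lie between -0.11 and 0.22, and the 9 filled points are Ncor1, Ebf3, Tcf7l2, Pck1 and Sult1a1 to the right of 0 and Cyp4a14, Mt1, Mt2 and Lcn2 to the left.

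Markers of other cells were read in the same comparison, in which 1.52% of all tested genes were called lower. Of 10 macrophage markers 3 were called lower over both KO groups, and the summed share of all 10 was 0.0501 to 0.0755% in Homo KO, 0.0383 to 0.0565% in Hete KO and 0.0707 to 0.104% in WT. Of 10 progenitor markers 2 were called lower, and all 10 took 0.158 to 0.199% in Homo KO, 0.102 to 0.155% in Hete KO and 0.190 to 0.268% in WT. In both lists the Homo KO and WT ranges overlapped and the Hete KO range lay below that of WT. The 10 endothelial markers had 0 calls, and took 0.0722 to 0.116, 0.0658 to 0.0796 and 0.0735 to 0.112% in Homo KO, Hete KO and WT. The part of these cell types in the values of the 10 factors and of the listed genes was not tested. All 9 listed genes that were called also passed without Hete KO 1, and 8 passed without WT 1, 4 without Hete KO 2 and 1 without Homo KO 1. None of the 9 passed in edgeR without the muscle libraries, without the liver libraries, or without WT 2, WT 3, Hete KO 3, Homo KO 2 or Homo KO 3 alone. Over all fits without 1 library, Tcf7l2 was at 0.59 to 0.67 and Ncor1 at 0.47 to 0.57.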

How the data were processed

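Whole-tissue RNA was measured in 3 Homo KO, 3 Hete KO and 3 WT libraries. Per the file headers, the authors deposited estimated counts and TPM per transcript; the quantifier is not named in the labels, and the genome build is mm10 per the submitters' processing notes. Of 113193 transcripts, 111362 matched the annotation and were summed to 35071 genes; 1831 were left out. Summed estimated counts were rounded and tested with edgeR 4.0.16 (R 4.3.3; TMM, filterByExpr, quasi-likelihood F-test, all 9 libraries, 6 residual degrees of freedom, Benjamini-Hochberg over 17968 genes, threshold 0.05). Fold changes used a prior count of 0.125. Transcripts were tested the same way, and the Pparg isoform share with an exact permutation test. Alternatives used DESeq2 1.42.0, limma 3.58.1, other filters and fewer libraries. The scripts were tested on simulated data. The members, the lists and the comparison of both KO groups against WT were chosen with earlier results of these data known. Named beyond the members were, per list, up to 3 genes higher and 3 lower with the smallest p, and per member the 3 genes of highest correlation. The labels call the libraries separate samples and say no more, so p-values measure the spread between these samples, which may be technical.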

Additional observations from a re-analysis of the deposited data

How the results depend on the processing

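Of 704 values of members under other settings, 662 kept their direction and side of the threshold, 7 passed it in addition, 35 turned direction and 0 lost a call. These cover the 10 members against WT and, between the KO groups, Cebpa, Cebpd, Klf15 and Ebf2. Cebpb, Ppard, Klf15 and Ebf2 did not turn against WT. Between the KO groups Cebpb turned under 5 of 21 settings (-0.084 to 0.077) and Ebf2 under 2. DESeq2 called 2 members higher in Hete KO against WT and 2 over both KO groups, Klf15 and Ebf2. With a replicate block, 1 member passed in Hete KO (Klf15, 0.86) and 2 over both KO groups (Klf15 0.71, Ebf2 0.56). The replicate numbers share no stated litter or batch, and 3 of 9 pairs correlated above 0.1 (-0.0722 to 0.458), so they are not taken as pairs. In Homo KO against WT, Rxra was at 0.029 with a length offset and at 0.0443 and 0.0445 in the limma fits, and Ppara at 0.068 and 0.076 in limma, 0.10 with the block, 0.088 without the muscle libraries, 1.05 without the liver libraries and 0.16 with the muscle covariate. Rxrg was at -0.00092 with only the groups compared and -0.055 without the liver libraries, and Pparg at -0.023 without the muscle libraries. Without the muscle libraries Cebpa was at -0.014 and Rxrg at -0.0016 in Hete KO against WT, Ebf2 at 0.036 in Homo KO against Hete KO, and Cebpd at -0.0060 over both KO groups (-0.024 without the liver libraries). Leaving out 1 library at a time gave -0.25 to 0.12 for Cebpd, -0.33 to 0.49 for Ppara and -0.048 to 0.10 for Rxrg in Homo KO against WT, -0.12 to 0.70 for Ppara, -0.16 to 0.43 for Rxrg and -0.029 to 0.22 for Cebpa in Hete KO against WT, -0.29 to 0.048 for Ebf2 between the KO groups, and -0.22 to 0.59 for Ppara and -0.078 to 0.23 for Rxrg over both KO groups. The PPARγ2 share difference, -0.90 points of all Pparg TPM, was -3.05 to 1.11 without 1 library, and with the other denominators 4.15 points of counts and 3.21 of coding TPM. Wnt10b was at 0.11 without the liver libraries. The cause of these turns was not tested.

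Counts over all genes moved more. The main fit and DESeq2 both took the 17968 genes that passed the filter. In Homo KO against WT edgeR called 0 higher and 0 lower, against 289 and 363 with DESeq2, 3 and 38 without the muscle libraries, 1 and 1 without the liver libraries, 7 lower with only the groups compared, 1 lower with no filter, and 0 to 19 and 0 to 134 without 1 library. In Hete KO against WT the counts were 27 and 48, against 650 and 1024 with DESeq2, 92 and 156 with the block, 90 and 168 with no filter, 41 higher at 1 CPM, 69 and 88 with the covariate, 0 and 1 with the length offset, 1 and 10 without the muscle and 1 and 0 without the liver libraries, 0 and 0 in limma or with only the groups compared, and 0 to 357 and 0 to 601 without 1 library. Between the KO groups they were 0 and 0, against 4 and 4 with DESeq2. Over both KO groups they were 148 and 273, against 791 and 1047 with DESeq2, 223 and 536 with no filter, 97 higher with the covariate, 0 and 4 with the length offset, 4 and 8 or 3 and 3 in limma (pseudocount 0.5 or 0.1), 5 and 97 without the muscle libraries, 1 and 1 without the liver libraries, and 0 to 393 and 2 to 702 without 1 library. Of the listed genes, 5 higher and 4 lower, DESeq2 called 25 and 9, and limma, the length offset and the fits without the muscle or liver libraries 0 and 0. With 3 libraries a group, differences in members of low count such as Ppara and Cebpd had SEs between 0.289 and 0.382.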
